A study of Mus musculus with 6 samples.

Results

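The Spata genes (spermatogenesis associated) and Tex genes (testis expressed) were followed in RNA from mouse sperm nuclei and whole mouse sperm. Members were all rows of the count tables whose symbol is Spata or Tex followed by a number, without Tex11, Tex12, Tex14 and Tex101. This gave 50 genes, 26 Spata and 24 Tex, of 25610 genes and assembled regions. The 3 preparations were nuclei 1, nuclei 2 and whole sperm, all from adult C57BL/6 mice of transgenic line HP3.1 at 4 months of age, so every preparation carried the transgene. Sperm came from the cauda epididymis and vas deferens. Heads were freed by sonication and nuclei were recovered through sucrose and caesium chloride with detergent, whereas whole sperm skipped these steps. The labels tie no preparation to an animal, so p-values measure only the spread between the 2 nuclei preparations, which may be technical. In edgeR, the main test, that spread is pooled over rows. The spread behind a gene's SE and p is therefore not that of its own 2 nuclei values. Whole sperm had no replicate.

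The names Spata and Tex record where a gene was found, not a common ancestor, and the members do unrelated work. Some act in meiosis or silence transposons, many are transcribed in round spermatids, and others serve most cell types. Mature sperm have compacted chromatin and little cytoplasm, and the RNAs they carry are largely left over from spermatid transcription. The members were therefore described in 4 groups by role, assigned and not tested. These were 24 of spermatids and sperm, 5 of the Spata31 family, 7 of meiosis and transposon control, and 14 with work in most cell types.

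Wherever 3 values stand together, they are in the order nuclei 1, nuclei 2, whole sperm. The count totals were 5487306, 6648848 and 8316345. A count of 0 allows up to 3 counts, or 0.572, 0.449 and 0.346 CPM (counts scaled to library size), counting error only. All 9 markers of sperm and late spermatids were counted in every preparation, with summed levels of 4787, 4347 and 2485 CPM. Prm2, which encodes protamine 2 and was assayed by RT-PCR in the study, had 3104, 2874 and 2764 counts. Markers of epididymal and vas deferens secretion went the other way, at 2569, 2566 and 16142 CPM, with both nuclei libraries below whole sperm in 6 of 6 tested. Lcn5, Lcn8 and Rnase10 of that list were at 0 in all preparations. Summed epithelial markers were 116, 154 and 605 CPM, lower in both nuclei libraries for 8 of 9, and leukocyte markers were 36.2, 11.4 and 56.4 CPM. Sertoli and Leydig cell markers summed to 27.6, 7.04 and 21.5 CPM, nearly all from Sox9 (144, 24 and 11 counts) and Wt1 (0, 23 and 175 counts), and Amh, Star and Insl3 were at 0 throughout. Smooth muscle and stroma markers summed to 124, 79.8 and 94.2 CPM, and those of spermatogonia and spermatocytes to 325, 213 and 115 CPM. The part of other cells in the members' values was not tested. In bulk RNA, fewer cells of a type and less RNA per cell cannot be told apart.

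Of the 50 members, 46 had at least 1 count, where 19432 of all 25610 rows did. Nuclei 1 and nuclei 2 each counted 41 of the members and whole sperm counted 42, and 36 were counted in all 3 preparations. Over all rows, 15953, 13563 and 15602 were counted, and 10812 in all 3. Spata25, Tex13, Tex28 and Tex36 had 0 counts everywhere. The members together took 0.154% of the counts in nuclei 1 (exact binomial 95% interval 0.150 to 0.157), 0.218% in nuclei 2 (0.215 to 0.222) and 0.129% in whole sperm (0.127 to 0.132). The share was thus higher in each nuclei library than in whole sperm, and the 2 nuclei libraries also differed from each other beyond counting error. A share is relative to the other RNAs of its library. Scaled by spike-ins, the members' median log2 fold change (nuclei over whole sperm) was -0.80, against -1.16 over all rows. The spermatid and sperm group made up most of it, at 960, 1391 and 732 summed CPM.

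**Figure D1:**
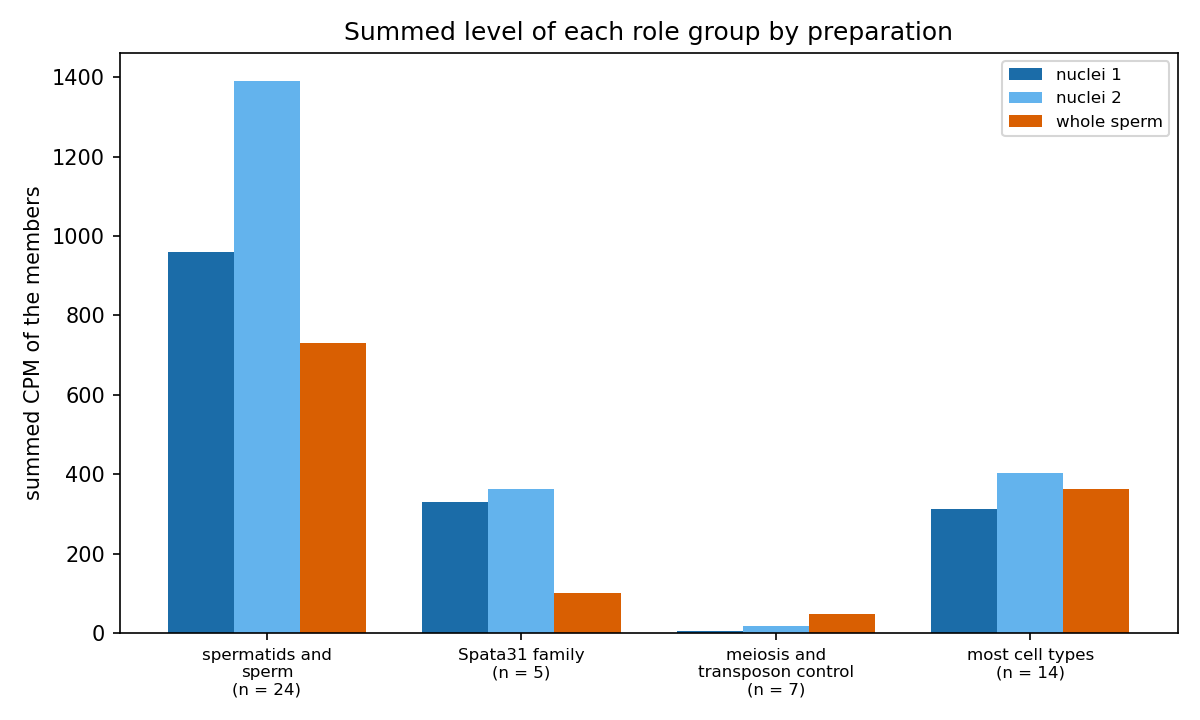
Summed level of the members of each role group, in CPM with TMM (trimmed mean of M-values) scaling, in nuclei 1, nuclei 2 and whole sperm; each bar is 1 library and has no error. On this scale the spermatid and Spata31 bars are higher in both nuclei libraries than in whole sperm, and the bars of the meiosis and transposon control group are lower. For the genes of most cell types, whole sperm lies between the nuclei libraries.

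The Spata31 family is shown by its promoters because all of its tested members had a log2 fold change (nuclei over whole sperm) above 0. It is a testis-expressed family of multiple copies, and mouse Spata31 is needed for spermatogenesis. All 5 members lie on chromosome 13 of mm10 (GRCm38). Spata31d1a (59700083 to 59706587, minus strand), Spata31d1b (59712284 to 59719289, plus strand) and Spata31d1d (59725925 to 59731752, minus strand) are neighbours, whereas Spata31 (64917406 to 64923195) and Spata31d1c (65033058 to 65038004), both on the plus strand, lie apart from them. The start used for the promoter of Spata31d1a lies inside its gene span, so the promoter window printed for it does too. The 4 Spata31d1 promoters, from 250 bases before to 50 bases after the start in RefSeq (GRCm38.p6), are printed 5′ to 3′ with the longest run common to all 4 in capitals.
Spata31d1a (chr13:59706148-59706447, minus strand): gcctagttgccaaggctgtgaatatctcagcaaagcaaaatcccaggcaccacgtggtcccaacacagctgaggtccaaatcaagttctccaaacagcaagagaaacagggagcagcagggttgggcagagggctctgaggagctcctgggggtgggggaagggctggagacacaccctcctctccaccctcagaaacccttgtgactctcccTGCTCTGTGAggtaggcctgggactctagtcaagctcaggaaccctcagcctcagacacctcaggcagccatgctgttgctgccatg
Spata31d1b (chr13:59712034-59712333, plus strand): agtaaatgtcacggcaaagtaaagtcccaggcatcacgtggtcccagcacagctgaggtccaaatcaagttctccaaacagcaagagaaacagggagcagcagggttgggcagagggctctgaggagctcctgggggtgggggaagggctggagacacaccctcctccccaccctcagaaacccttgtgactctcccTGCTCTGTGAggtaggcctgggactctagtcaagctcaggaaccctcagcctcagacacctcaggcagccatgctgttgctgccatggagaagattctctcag
Spata31d1d (chr13:59731703-59732002, minus strand): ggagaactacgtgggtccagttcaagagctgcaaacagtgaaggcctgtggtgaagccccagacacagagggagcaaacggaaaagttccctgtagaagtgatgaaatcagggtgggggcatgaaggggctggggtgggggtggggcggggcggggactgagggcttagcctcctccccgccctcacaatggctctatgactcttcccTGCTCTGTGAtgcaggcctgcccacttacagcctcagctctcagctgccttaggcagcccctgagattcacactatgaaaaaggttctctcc
Spata31d1c (chr13:65032808-65033107, plus strand): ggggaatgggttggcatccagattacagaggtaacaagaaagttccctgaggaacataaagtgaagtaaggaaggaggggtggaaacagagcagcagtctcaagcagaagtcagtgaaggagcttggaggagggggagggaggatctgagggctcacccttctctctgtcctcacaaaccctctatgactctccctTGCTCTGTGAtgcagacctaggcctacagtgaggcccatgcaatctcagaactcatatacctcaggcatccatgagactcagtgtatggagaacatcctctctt
The common run, TGCTCTGTGA, is 10 bases long and starts 37, 53, 42 and 54 bases before the start of Spata31d1a, Spata31d1b, Spata31d1d and Spata31d1c. On either strand it was found in 102 of 27025 promoters of all genes (0.377%). The promoters of Spata31d1a and Spata31d1b were 86.7% identical and had a run of 120 bases in common, and their transcripts were 77.5% identical. The other pairs of these 4 promoters were 55.7% to 62.0% identical. By the same measure, each of the 4 was 44.3% to 46.7% identical to the promoter of Spata7, a gene outside the family. The other pairs of transcripts among the 5 members were 49.3% to 59.9% identical. A match is a description of the letters only.

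Spata31d1a had 710, 973 and 280 counts, or 135, 146 and 32.3 CPM. The nuclei libraries lay close together and far above whole sperm. The fold was 4.35 on the CPM scale, with a log2 fold change of 2.12 ± 0.90 (SE) that missed the threshold (edgeR quasi-likelihood test, adjusted p = 0.605). Its neighbour Spata31d1d had 497, 915 and 314 counts (94.8, 137 and 36.2 CPM). Its log2 fold change was 1.68 ± 0.92 (edgeR, adjusted p = 0.909). Spata31d1b, the member closest to Spata31d1a in transcript sequence, had 416, 426 and 280 counts (79.3, 63.8 and 32.3 CPM). Its log2 fold change was 1.15 ± 1.00 (edgeR, adjusted p = 0.909). Transcripts of Spata31d1a and Spata31d1b had 25.0% and 24.9% of their 50-base stretches in common with each other, so how reads were divided between them is uncertain. No source used here gives the read length.

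The remaining family members were scarce. Spata31d1c, picked with its values in view, had 30, 103 and 8 counts. Spata31 had 72, 1 and 0, so it rested on nuclei 1. All 5 members had both nuclei libraries above whole sperm on the TMM scale, though Spata31d1b went to -0.29 with spike-in scaling. Of all tested rows 26.7% had both above. By edgeR none of the 5 was called, while DESeq2 called Spata31d1a. The family's median log2 fold change was 2.12 against 0.27 over all 16720 rows tested. It was 2.15 with nuclei 1 alone and 2.17 with nuclei 2 alone, and 0.69 when scaled by spike-ins. Each of these medians was the value of Spata31d1a itself, so their closeness is that of 1 gene. On the spike-in scale Spata31d1a was at 0.69 and Spata31d1d at 0.24.

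Of the 24 spermatid and sperm genes, 21 were tested. None passed the edgeR threshold in either direction, where 0.0658% of all tested rows were called higher and 0.0957% lower. Their log2 fold change was above 0 in 15 and below 0 in 6, where 54.4% of all tested rows were above 0. Both nuclei libraries lay above whole sperm in 12, where 26.7% of all tested rows did, and below it in 4, where 36.9% did. The group's median was 0.84, or 1.00 with nuclei 1 alone and 1.28 with nuclei 2 alone. Scaling by spike-ins moved it to -0.59, as it moved the median of all rows from 0.27 to -1.16, so its side of 0 differed between scalings.

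Tex29 was the member with the highest RPKM (reads scaled to transcript length and library size) in each nuclei library, with values of 38.6, 95.2 and 20.05. Its counts were 381, 957 and 191. Both nuclei libraries were above whole sperm but nuclei 2 was far above nuclei 1, and the log2 fold change was 2.29 ± 0.98 (edgeR, adjusted p = 0.614). Spata32 had 501, 576 and 123 counts (95.5, 86.3 and 14.2 CPM), with nuclei libraries close to each other. This was a 6.40-fold difference on the CPM scale and a log2 fold change of 2.68 ± 1.06, with the lowest p of any member (edgeR, unadjusted p = 0.0114, adjusted p = 0.505). Tex26 had 436, 331 and 103 counts (83.1, 49.6 and 11.9 CPM) and a log2 fold change of 2.48 ± 1.16 (edgeR, adjusted p = 0.728). Here nuclei 1 was the higher nuclei library, the reverse of Tex29.

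Tex37 and Tex33, which encode proteins of the sperm tail microtubules, also had both nuclei libraries above whole sperm. Tex37 had 80, 189 and 25 counts, and its log2 fold change was 2.91 ± 2.40. Tex33 had 227, 484 and 141 counts and a log2 fold change of 1.83 ± 1.17 (edgeR, adjusted p = 0.909 for both). Spata3 was among the most abundant members in all preparations, at 27.6, 83.3 and 20.5 RPKM. It had 475, 1265 and 415 counts and a log2 fold change of 1.55 ± 0.86 (edgeR, adjusted p = 0.909). Nuclei 2 held 2.09 times the CPM of nuclei 1 for this gene.

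The size of these differences depended on the scaling. With spike-in scaling the log2 fold change was 1.24 for Spata32, 1.05 for Tex26 and 0.85 for Tex29. It was 1.47 for Tex37, 0.39 for Tex33 and 0.11 for Spata3. All 6 stayed above 0 on that scale, and none was called.

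In whole sperm other members led in RPKM. Spata18 (Mieap), which acts in the quality control of mitochondria, came first, at 20.3, 30.3 and 49.8 RPKM. Its counts of 530, 841 and 1159 gave levels of 101, 126 and 134 CPM and a log2 fold change of -0.24 ± 0.77 (edgeR, adjusted p = 1.00). Spata6, needed to build the connecting piece between head and tail, followed, at 13.2, 25.98 and 39.7 RPKM. Its levels of 94.6, 163 and 168 CPM (496, 1085 and 1456 counts) gave a log2 fold change of -0.39 ± 0.76 (edgeR, adjusted p = 0.986). For both genes whole sperm was highest, and nuclei 2 lay near it in CPM but well below it in RPKM. Spata7, a ciliary protein of photoreceptors, came next at 8.02, 49.0 and 37.6 RPKM, and then Tex35 at 24.7, 24.5 and 28.0 RPKM. Whole sperm was also highest in RPKM for Spata16, which acts in forming the acrosome, at 10.6, 13.9 and 21.2 RPKM, although nuclei 2 and whole sperm were level in CPM (52.6, 73.5 and 72.6). Spata20, a thioredoxin-like protein, had 79.7, 143 and 75.0 CPM, with nuclei 2 standing apart.

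**Figure D2:**
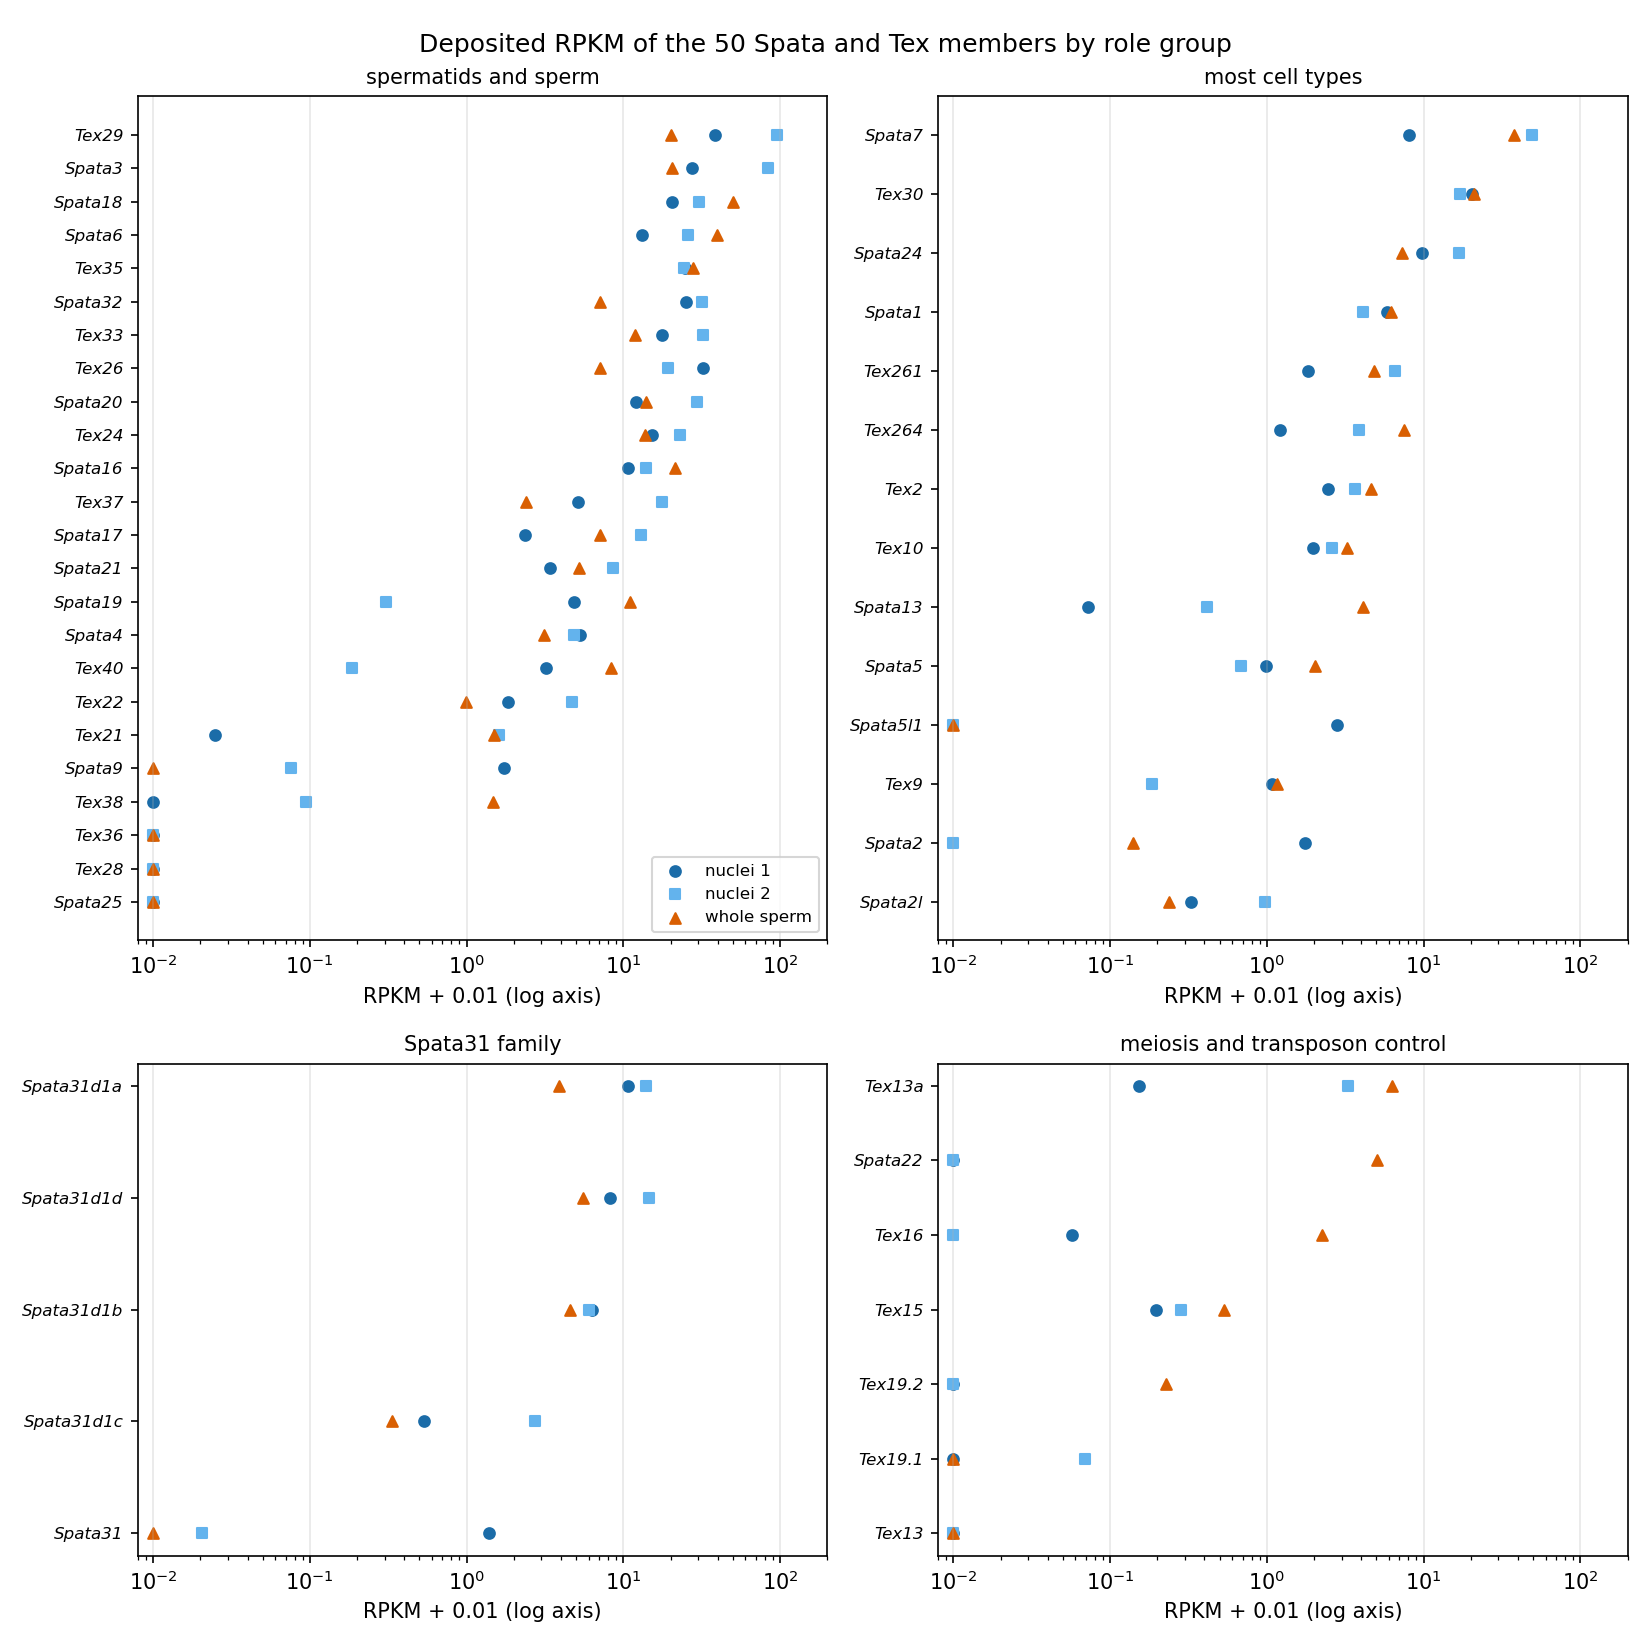
RPKM of each member in nuclei 1, nuclei 2 and whole sperm on a log axis, with 1 point per library and a small constant added so that 0 can be drawn. Tex29 leads in both nuclei libraries (38.6 and 95.2 RPKM) and Spata18 in whole sperm (49.8 RPKM).

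Levels spanned a wide range within each preparation. Members at or above 10 RPKM numbered 13, 18 and 12. The 90th percentiles over all genes were 9.84, 10.5 and 11.1 RPKM, and 13, 18 and 11 members lay above them. Pearson's r of log2(RPKM + 1) over the 50 members was 0.87 between the nuclei libraries. Against whole sperm it was 0.77 for nuclei 1 and 0.81 for nuclei 2. These describe genes that have length and sequence in common across libraries, and genes are not replicates.

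A few spermatid genes rested on single libraries. Tex38 had 0, 1 and 25 counts. Outside the rule for named genes, and picked with their values in view, Spata19, a mitochondrial protein of the midpiece, had 50, 4 and 97 counts. Tex40 (Catsperz), an accessory subunit of the CatSper calcium channel, had 62, 2 and 98, and Tex21 had 1, 99 and 52. Each of these last 3 was counted well in whole sperm and in 1 nuclei library and was near 0 in the other. Among the 43 members with at least 20 counts in some preparation, 7 had 0 in another, where 34.3% of such rows did so over the whole table.

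**Figure D3:**
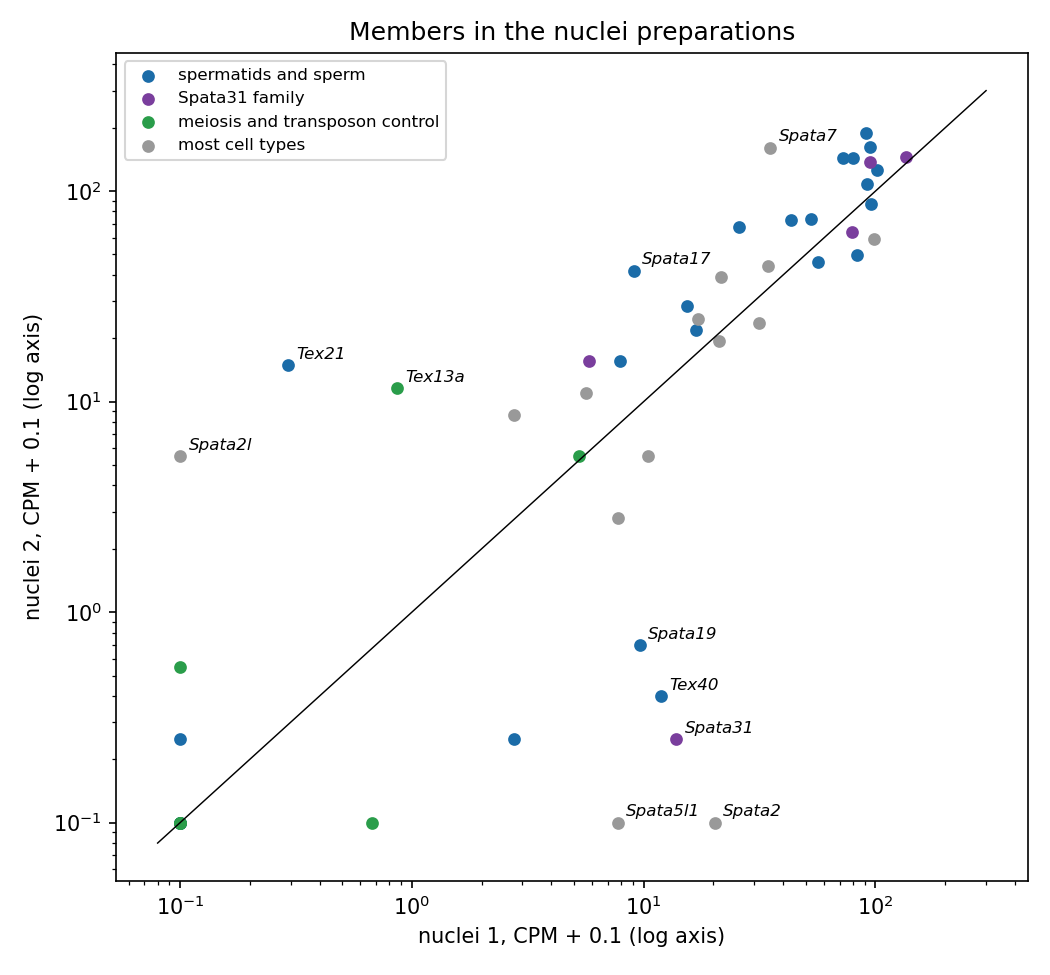
Level of each member (CPM + 0.1) in nuclei 2 against nuclei 1, both axes logarithmic, with 1 point per gene coloured by role and a line of equality. Most abundant members lie near the diagonal, while Tex21, Tex40 and Spata19 fall far from it.

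The meiosis and transposon control members were the scarcest role group in every preparation, whole sperm included. Their summed level was 6.48, 17.4 and 47.1 CPM. All 4 that were tested had both nuclei libraries below whole sperm, where 36.9% of all tested rows did, and edgeR called none. The other 3 were not tested by edgeR. Limma on log2(RPKM + 0.1) without a filter on low values called Spata22 and Tex19.2 lower, where it called 4.52% of all rows lower. Both genes were at 0 RPKM in each nuclei library, so their nuclei values had no spread. With the filter, Spata22 was not called (limma, adjusted p = 0.435). Spata22, which works in meiotic recombination, had 73 counts in whole sperm and 0 in each nuclei library. Taking a floor of 3 counts per nuclei library, this is at least 16.5-fold lower, with an edgeR adjusted p of 0.909. Of its 50-base stretches, 79.7% also belong to Gm49340, which overlaps it on the same strand, so reads of the pair cannot be fully told apart. Tex16, on the X chromosome, had 3, 0 and 110 counts. Tex13a, also X-linked, had 4, 77 and 141, so its nuclei libraries differed widely. Tex15, which acts in meiosis and in the piRNA-guided silencing of transposons, had 27, 36 and 71 counts (5.15, 5.39 and 8.19 CPM) and a log2 fold change of -0.64 ± 3.87 (edgeR, adjusted p = 1.00). The transposon-silencing genes Tex19.1 (0, 3 and 0 counts) and Tex19.2 (0, 0 and 13 counts), outside the rule for named genes, were too low to test. The group's median log2 fold change was -3.40, midway between Tex16 (-5.41) and Tex13a (-1.40). It was -2.72 with Spata22, the tested gene at 0 in both nuclei libraries, set to its bound. Membership of this group was assigned, not tested, and no role in meiosis or transposon control is shown here for Tex16 and Tex13a. The sum of markers of spermatogonia and spermatocytes went the other way, at 325, 213 and 115 CPM, with 1 of 7 tested below 0. Most of that sum was Ddx4, at 209, 148 and 62.1 CPM. Both nuclei libraries were above whole sperm for Ddx4 and Zbtb16 and below it for Dazl. Sycp1, Sycp3, Stra8 and Kit were split.

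Of the 14 genes assigned to work in most cell types, 3 had both nuclei libraries above whole sperm (26.7% of all tested rows). In 5 both were below (36.9% of all tested rows), and 6 were split. The group's shares were near those of all rows, and its median log2 fold change was 0.05. The 3 above were Spata1, Spata24 and Tex30. Membership was assigned, not tested, and no role in most cell types is shown here for Spata1 and Spata24. Spata13, a guanine nucleotide exchange factor, was the furthest below, with 14, 57 and 507 counts (2.67, 8.54 and 58.5 CPM). It was 10.4-fold lower in nuclei on the CPM scale, with a log2 fold change of -3.38 ± 1.51 (edgeR, unadjusted p = 0.0250, adjusted p = 0.673). Tex264, a receptor for autophagy of the endoplasmic reticulum, had 29, 73 and 195 counts and a log2 fold change of -1.45 ± 2.26 (edgeR, adjusted p = 0.964). The epithelial markers were also lower in both nuclei libraries for 8 of 9 genes, and their part in these values was not tested.

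Spata7 had 184, 1072 and 832 counts (35.1, 161 and 96.0 CPM). Nuclei 2 held 4.58 times the CPM of nuclei 1, and whole sperm lay between them, giving a log2 fold change of 0.03 ± 0.82 (edgeR, adjusted p = 1.00). Its promoter is shown because it was the only one, among the 44 members with a promoter in the table, to hold TGACGTCA, the cAMP response element bound by the spermatid factor CREM, on either strand. The element is in capitals and starts 7 bases before the start used. That start lies inside the gene span, which begins at 98628129, and so does the element.
Spata7 (chr12:98627892-98628191, plus strand): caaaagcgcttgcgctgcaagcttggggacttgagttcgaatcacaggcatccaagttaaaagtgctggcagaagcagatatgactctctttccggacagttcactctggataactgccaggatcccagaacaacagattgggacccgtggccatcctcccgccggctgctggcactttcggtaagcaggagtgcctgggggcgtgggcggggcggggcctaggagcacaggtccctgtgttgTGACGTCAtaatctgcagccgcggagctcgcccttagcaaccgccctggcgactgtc
The share of members was 2.27%, beside 549 of 27025 promoters of all genes (2.03%). The shorter TGACG, which the longer motif contains, was in 11 members (25.0%) and in 23.05% of all promoters. Both shares were near those of all genes.

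Tex30 had 518, 395 and 472 counts (98.8, 59.2 and 54.5 CPM), and Tex2, a lipid-binding protein of the endoplasmic reticulum, had 179, 295 and 339 counts (34.1, 44.2 and 39.1 CPM). Tex10, which acts in ribosomal RNA processing, had 110, 129 and 187 counts (21.0, 19.3 and 21.6 CPM). Tex2 and Tex10 differed by less than their standard errors, of 1.13 and 1.67 on the log2 scale, and for Tex30 nuclei 1 stood above the others. Spata2, an adaptor for the deubiquitinase CYLD, had 106, 0 and 7 counts, and its paralogue Spata2l had 0, 36 and 14. Spata5l1, an AAA ATPase of ribosome maturation, had 40, 0 and 0. Each was at 0 in 1 nuclei library and counted in the other, so their fold changes rest on single libraries.

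Over all 44 members tested, edgeR called 0 higher and 0 lower. Taking unadjusted p-values under 0.05, 4 were higher (Spata32, Spata31d1a, Tex29 and Tex26), where 3.77% of all tested rows were, and 1 was lower (Spata13), where 2.07% were. DESeq2 called 1 higher, Spata31d1a, with a log2 fold change of 2.17 and an adjusted p of 0.0479, where it called 1.22% of all rows higher and 0.233% lower. DESeq2 gave 37 of the 44 members no adjusted p, and the adjusted p of Spata31d1a over all settings ran from 0.0479 to 0.801. Scaling by spike-ins with edgeR called Spata13 lower (log2 fold change -4.82, adjusted p = 0.00976), where 3.26% of all rows were called lower and 0.0239% higher. Its adjusted p over all settings ran from 0.00976 to 0.776.

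**Figure D4:**
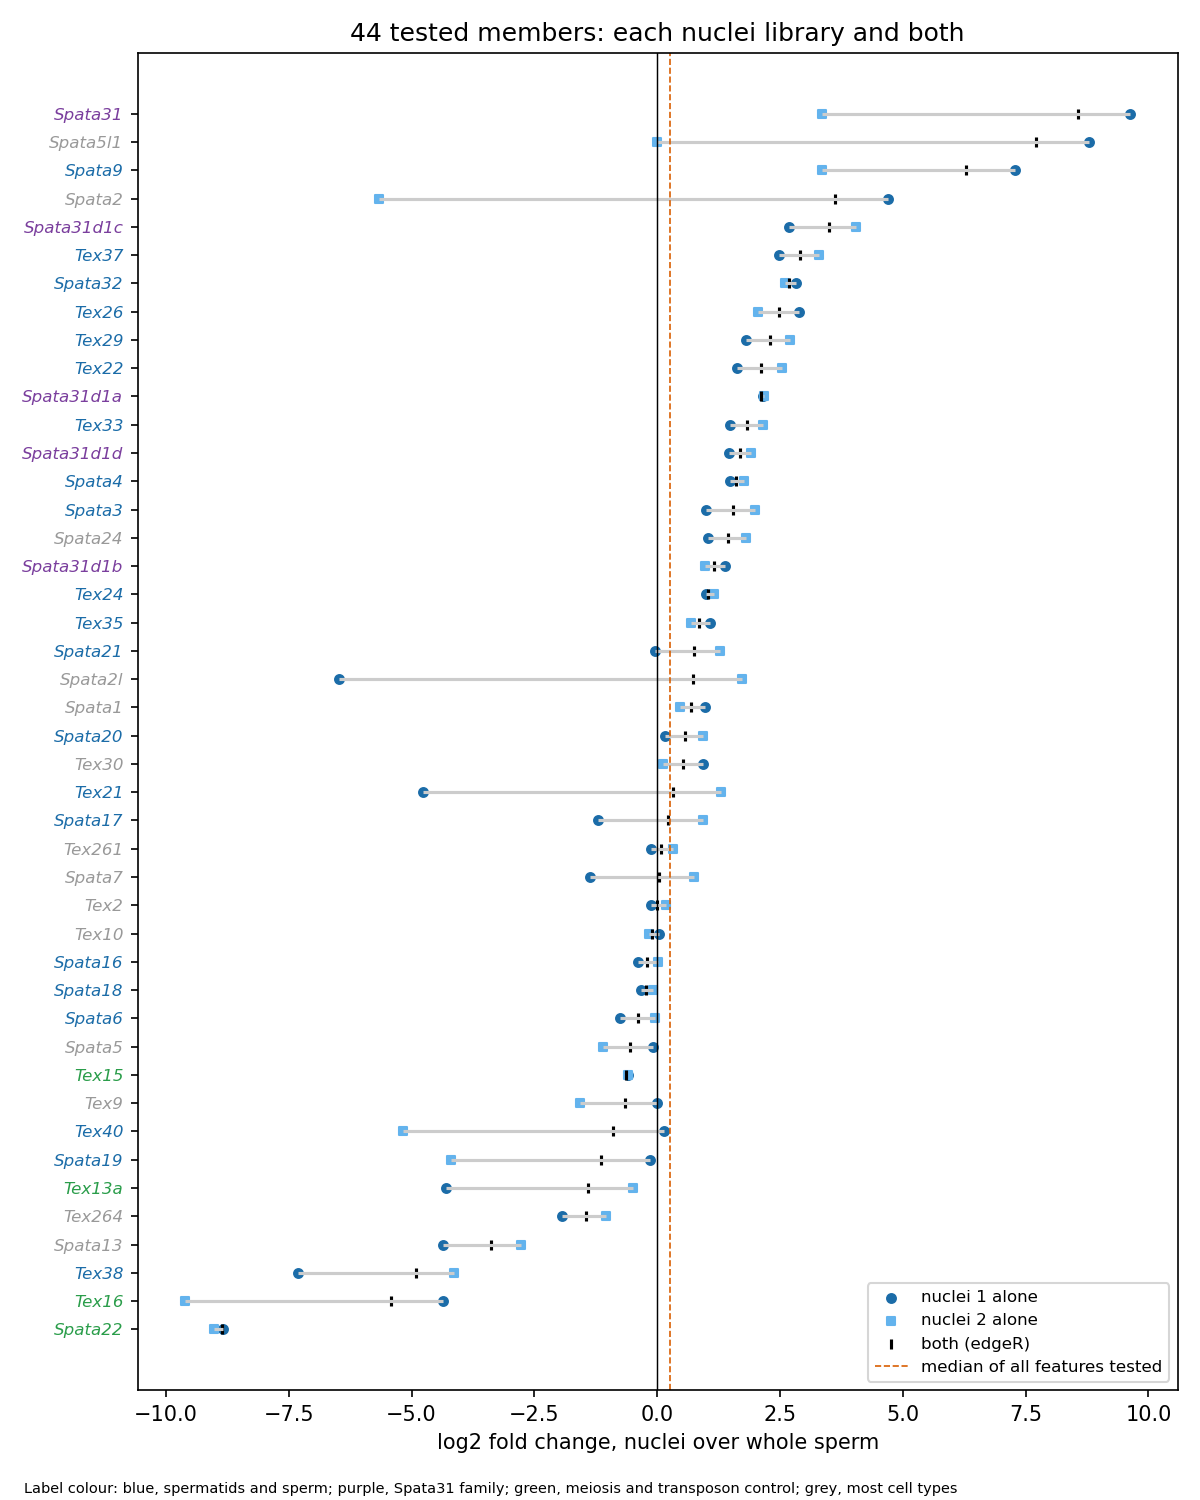
Log2 fold change, nuclei over whole sperm, of the 44 tested members, with names coloured by role, on the TMM scale. Black ticks are the edgeR fit to both nuclei libraries, circles and squares are nuclei 1 alone and nuclei 2 alone, the grey line joins them, and the dashed line is the median of all rows (0.27). All 5 Spata31 genes lie above 0, though Spata31d1b went to -0.29 with spike-in scaling. All 4 tested genes of the meiosis and transposon control group lie below 0. Values of genes at 0 in a group depend on the fit's prior count and are no measure of size.

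Of the 44, 29 had a log2 fold change above 0, where 54.4% of all tested rows did. Both nuclei libraries lay above whole sperm in 20 (26.7% of all tested rows) and below it in 13 (36.9% of all tested rows), and 11 were split. Among the 27 members with a mean of at least 10 CPM, 16 had both nuclei libraries above whole sperm (37.6% of all rows at that level) and 5 had both below (35% of all rows). The median over the members was 0.63 against 0.27 over all rows. It was 0.16 with nuclei 1 alone and 0.72 with nuclei 2 alone, so it lay nearer 0 without nuclei 2. Late spermatid genes outside these families, a list of 40 that includes protamines, transition proteins and tail genes, had a median of 0.55 over 38 tested, with 24 above 0, 14 below and 0 called by edgeR.

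The RPKM table did not always put a member on the same side as the counts. Of 40 tested members with RPKM above 0 in nuclei and whole sperm, 7 had a ratio of the other sign: Spata1, Spata7, Tex2, Tex21, Tex261, Tex30 and Tex35. Tex35 had 56.4, 46.0 and 28.5 CPM but was highest in whole sperm in RPKM. Spata2l had 0 counts in nuclei 1 but 0.316 RPKM there. A side of 0 for these members therefore depended on the deposited table used.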

How the data were processed

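RNA-seq was analysed for 3 preparations, nuclei 1, nuclei 2 and whole sperm, whose runs were taken as combined in 1 column each. The deposited counts are whole numbers of reads for each gene or region, not normalized. RPKM values were deposited by the authors in a separate table. Region coordinates, a plain position rather than a measurement, come from the authors' deposited list. The submitters' processing notes list TopHat2 2.0.12 and HTSeq with build mm10, along with DESeq2, bedtools, SAMtools 0.1.19, Cufflinks 2.1.1 and CASAVA 1.8.2. No source used here gives their roles, their order or the strand setting, so reads of antisense genes cannot be told apart. An adjusted whole-sperm table was not used. In the whole-sperm table, reads outside features (34.4%) and ambiguous reads (1.97%), and 23 spike-ins in every table, were left out of library sizes and of every test.

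The main test was edgeR 4.0.16 (R 4.3.3), quasi-likelihood with TMM factors and filterByExpr, Benjamini-Hochberg over 16720 of 25610 rows, threshold 0.05, with 1 residual degree of freedom. Whole sperm, with 1 library, is taken to vary as nuclei do. Spread was pooled over rows, with infinite prior degrees of freedom and a common biological coefficient of variation of 1.30. The script was tested on simulated data with far less spread than these data, so that test does not bear on how many changes were missed here. Alternatives used DESeq2 1.42.0, limma 3.58.1 on log2(RPKM + 0.1) or log2(RPKM + 1), other scalings and filters, and each nuclei library left out. Members were matched to RefSeq and GENCODE annotation of GRCm38 by transcript accession (50 of 50). Named were members past the threshold, the 6 largest changes in each direction among members of at least 10 CPM with both nuclei libraries on 1 side, the 8 highest in RPKM per preparation, those with at least 20 counts in 1 preparation and 0 in another, up to 3 of the highest CPM in each role group, and Prm2. The members and lists were chosen with earlier results of these data known.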

Additional observations from a re-analysis of the deposited data

Results flagged for a closer look

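Reads outside any feature numbered 5896320 in the whole-sperm count table, and ambiguous ones numbered 336963. The nuclei tables used here list no such lines. These reads lie outside the comparison and were given to no member.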

How the results depend on the processing

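No paired analysis was possible because whole sperm has 1 library. Over the settings tried, edgeR with other scalings and filters and limma gave no call higher in nuclei. DESeq2 gave 1 (Spata31d1a). Calls lower in nuclei were 1 with spike-in scaling (Spata13), 2 with limma on log2(RPKM + 0.1) without a filter, and 0 otherwise. The 2 were Spata22 and Tex19.2, both at 0 in each nuclei library, and 4.52% of all rows were called lower there. Medians counted as moved when they shifted by more than the SD of the medians from the 2 single nuclei libraries. With 2 libraries that SD was only 0.02 for the Spata31 family and 0.01 for the late spermatid list, so small shifts counted. A looser rule, the median SD of single members, was tried after the labels were seen and dropped.

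Spike-in scaling put the medians at -0.80 (all members), -0.59 (spermatids and sperm), 0.69 (Spata31), -4.83 (meiosis), -1.39 (most cell types) and -0.88 (late spermatid list), with -1.16 over all rows. With limma on log2(RPKM + 0.1) they were -0.18, 0.43, 1.63, -3.54, -0.48 and -0.22 in that order, with -0.62 over all rows. With log2(RPKM + 1) they were -0.17, 0.41, 0.85, -1.69, -0.35 and -0.040, with -0.26 over all rows. Without the RPKM filter they were 0, 0.025, 1.63, -1.67, -0.48 and -0.22. DESeq2 size factors gave 2.17 (Spata31) and 0.60 (late spermatid), as did the DESeq2 test. Library size alone gave 2.03, 0.47 and -0.019 (most cell types). Leaving out the 10 most abundant features gave 2.20, 0.63 and 0.14 for the same lists. A mean of at least 10 CPM gave 1.57, 0.25 and -0.10, and left no meiosis member. No filter gave 0.41 for the late spermatid list. Without 1 nuclei library, medians ran from 0.16 to 0.72 (all members), 1.00 to 1.28 (spermatids and sperm), 2.15 to 2.17 (Spata31), -4.81 to -4.33 (meiosis), -0.043 to 0.060 (most cell types) and 0.42 to 0.43 (late spermatid).

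Some named genes changed sign. Spike-in scaling gave Spata20 -0.87, Spata2l -0.71, Spata31d1b -0.29, Spata7 -1.42, Tex2 -1.44, Tex30 -0.89, Tex35 -0.59 and Prm2 -0.75. Limma on log2(RPKM + 0.1), with or without the filter, gave Spata7 -0.92, Tex2 -0.60, Tex30 -0.17 and Tex35 -0.18, and log2(RPKM + 1) gave -0.86, -0.48, -0.16 and -0.18. Library size alone gave Spata7 -0.038 and Tex2 -0.082, a mean of at least 10 CPM gave -0.12 and -0.10, and no filter gave Tex2 -0.00081. The cause was not tested. Leaving out a nuclei library leaves no residual degree of freedom, so it gave values with no test. Without nuclei 1, Spata16 went to 0.019, Spata2 to -5.66 and Spata5l1 to 0. Without nuclei 2, Spata2l went to -6.48, Spata7 to -1.37, Tex10 to 0.039 and Tex2 to -0.12.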

Other observations

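Assembled regions of the authors' deposited list lay in introns of 2 members. The region at chr1:86021462-86021824 (mm10), in an intron of Spata3, had 71, 209 and 62 counts (nuclei 1, nuclei 2, whole sperm) and a log2 fold change of 1.65 ± 2.06 (edgeR, adjusted p = 0.913). Its order over the preparations was that of Spata3 itself. The region at chrX:111963541-111967723, in an intron of Tex16, had 36, 46 and 179 counts and a log2 fold change of -1.58 ± 2.48 (edgeR, adjusted p = 0.964). A search within 10 kb, added after seeing the data, found a region at chr13:59732390-59732714, 638 bases from Spata31d1d, with 23, 182 and 0 counts (edgeR, adjusted p = 0.775), and 4 regions near Tex30 with 0 counts.

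Besides Spata22, Spata31d1a and Spata31d1b, 5 members had over 10% of their 50-base stretches in transcripts of another gene. These were Tex9 (58.3%, with Mns1), Spata24 (56.1%), Tex40 (41.4%, with Kcnk4), Tex24 (32.7%) and Tex30 (17.7%, with Gm29247), while 32 members had none.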
